A study of Bos taurus with 12 samples.

Results

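The 8 genes described here encode parts of the dystrophin-associated glycoprotein complex of the muscle cell membrane. They are the sarcoglycans SGCA, SGCB and SGCD, the dystroglycan gene DAG1, sarcospan (SSPN), the syntrophin SNTB1, the dystrobrevin DTNA and utrophin (UTRN). They were taken by gene name from a table of 18436 genes on the 29 bovine autosomes, and all 8 were among the 12302 genes whose mean reached 0.5 FPKM (FPKM is a fragment count scaled by transcript length and by the library's mapped fragments) and were tested. Their m6A peaks were taken by gene name from 2 peak lists.

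The cells were primary Qinchuan cattle myoblasts from the longissimus dorsi of a newborn animal, with no genetic change or drug in either group. The GM group was grown in medium with 20% foetal bovine serum to 80% confluence and sampled before differentiation was induced (day 0). The DM group had spent 4 days in differentiation medium with 2% horse serum, which leads myoblasts to fuse into myotubes. Each group had 3 input libraries (RNA before precipitation, read as expression) and 3 libraries from m6A immunoprecipitation. The study calls the replicates biological, but the labels do not tie them to separate animals or cultures and the cells are described as coming from a newborn animal, so the p-values measure the spread between these samples, which may be technical. Serum, confluence and days in culture changed together with fusion and cannot be told apart from it.

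In skeletal muscle the complex links the cytoskeleton to the extracellular matrix. DAG1 is cut into alpha-dystroglycan, which binds laminin outside the cell through its sugar chains, and beta-dystroglycan, which crosses the membrane and binds dystrophin or utrophin. The sarcoglycans and sarcospan form a subcomplex beside dystroglycan, and loss of alpha-, beta- or delta-sarcoglycan is known to cause limb-girdle muscular dystrophy. Syntrophins and dystrobrevins sit on the cytoplasmic side as adaptors for signalling proteins. Utrophin is the autosomal relative of dystrophin. N6-methyladenosine (m6A) is a reversible base modification of mRNA that tends to gather near stop codons and in 3′UTRs. Dystrophin itself, on the X chromosome, was not analysed here.

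Depth could not be read from the files used, since FPKM values carry no read totals. The marker genes of the cultures bear on every value below. Of 12 myotube markers 9 rose in DM, and their summed level went from 1113 to 1177 FPKM in the GM libraries to 2057 to 2167 FPKM in the DM libraries. The 4 largest of these changes were in CASQ2, CKM, ACTN2 and MYH8, at log2 fold changes of 2.18, 1.97, 1.81 and 1.74. The GM libraries already held MYOG at 190 to 207 FPKM and MYH3 (embryonic myosin heavy chain) at 270 to 275 FPKM, so muscle differentiation genes were expressed in the group labelled as myoblasts. Of 6 myoblast markers PAX7, MYF5, MYOD1 and ITGA7 fell. CDH15 was lower (log2 difference −0.25, limma adjusted p = 0.0068) but under the fold limit. DES, also not called, went the other way, with 446 to 465 FPKM in GM and 484 to 492 FPKM in DM. The summed level of this list was 560 to 586 FPKM in GM and 533 to 542 FPKM in DM. The summed level of 8 fibroblast markers, led by COL1A1, lay between 10320 and 10480 FPKM in GM and between 11680 and 12240 FPKM in DM, and none of the 8 was called, although 3 were higher and 1 lower at an adjusted p under 0.05 (limma). Of the 5 smooth muscle markers in the table SMTN fell, and all 4 that were tested were lower at an adjusted p under 0.05 (limma). The summed levels were 3086 to 3574 FPKM in GM and 2538 to 2713 FPKM in DM. MYH11, under the filter, went the other way, with 0.245 to 0.314 FPKM in GM and 0.481 to 0.561 FPKM in DM. The 4 endothelial markers in the table summed to at most 0.653 FPKM in any library, with CDH5 listed at 0 in 3 libraries. Of 2 Schwann cell markers S100B measured 9.12 to 10.6 FPKM, and NGFR at most 0.0568 FPKM. Of 5 adipocyte markers PPARG fell, ADIPOQ was listed at 0 in 2 libraries and FABP4 in 1, and the sum was at most 2.75 FPKM in any library. Under the filter, FABP4 lay higher in all DM libraries (0.309 to 0.758 FPKM) than in any GM library (0 to 0.194 FPKM). ADIPOQ and LPL, also under the filter, lay lower in all DM libraries. The part of these markers in the results below was not tested.

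Differentiated cultures held more mRNA of some parts of the complex but not of others. SGCD, DTNA and SNTB1 rose in DM, by 2.52-fold, 3.72-fold and 1.70-fold in mean FPKM. DAG1, the core of the complex, did not pass the test, nor did SGCA and SSPN, and the GM and DM libraries of all 3 overlapped. SGCB was 1.29-fold higher and UTRN 1.40-fold lower, both past an adjusted p of 0.05 but under the fold limit. A gene was called when limma gave an unadjusted p under 0.05 and the fold change exceeded 1.5, both on the scale of log2(FPKM + 1), which understates the change of low genes. By this rule 3 of 8 members were called higher and 0 lower, beside 4.90% of all tested genes called higher and 6.97% called lower (11.9% in all). At an adjusted p under 0.05 (limma, Benjamini-Hochberg adjustment over all tested genes), 4 members were higher and 1 lower, beside 16.1% and 26.7% of all tested genes (42.8% in either direction). The GM and DM libraries did not overlap for 5 of the 8 members, against 54.1% of all tested genes. They were higher in DM for 4 and lower for 1, where 21.1% of all tested genes were higher and 33.0% lower. With FPKM rescaled to TPM, SGCA and SSPN also passed the adjusted threshold (limma adjusted p = 0.024 and 0.032), and none of the calls changed. The members' median log2 fold change was 0.26, and that of all tested genes was −0.05. In cultures measured in bulk, a change in the share of cells of a type and a change in RNA per cell cannot be told apart.

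**Figure D1:**
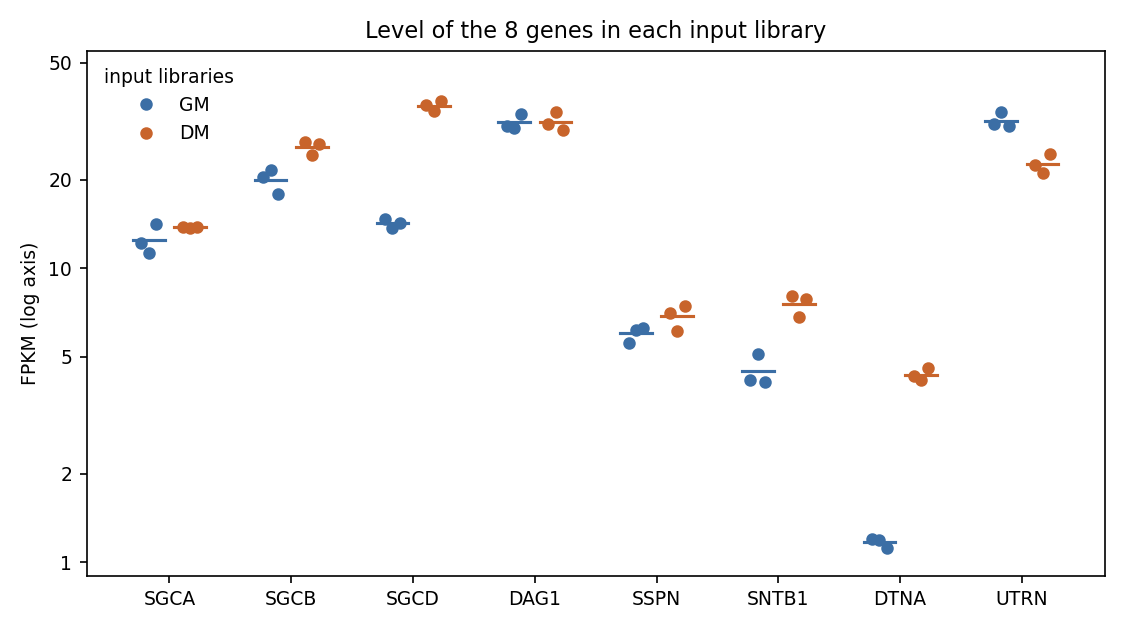
FPKM of each of the 8 genes (log axis) in the 3 GM and the 3 DM input libraries. Each point is a library and each horizontal line a group mean. SGCD, SGCB, SNTB1 and DTNA lie higher in all DM libraries than in any GM library, UTRN lies lower in all DM libraries, and the groups of SGCA, DAG1 and SSPN overlap.

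Of the 3 sarcoglycan members the delta subunit was the one that was called. SGCD (ENSBTAG00000044046, chr7:67575790-68016498 of ARS-UCD1.2, plus strand) encodes delta-sarcoglycan, a single-pass membrane protein that forms a core with the beta subunit. Its level was 14.7, 13.8 and 14.2 FPKM in GM replicates 1 to 3 and 36.0, 34.2 and 37.2 FPKM in DM replicates 1 to 3. Every DM library stood well above every GM library. Its log2 fold change was 1.27 ± 0.0536 (SE, n = 3 per group; 95% interval 1.15 to 1.40; limma adjusted p = 1.1e-06).

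SGCB (ENSBTAG00000014601, chr6:67878832-67905884, minus strand) encodes beta-sarcoglycan, the partner of the delta subunit in that core. Its 3 GM libraries held 20.5, 21.6 and 17.9 FPKM and its 3 DM libraries 26.9, 24.2 and 26.5 FPKM. The groups did not overlap, and the log2 fold change was 0.36 ± 0.0768 (SE, n = 3 per group; 95% interval 0.18 to 0.53; limma adjusted p = 0.0063). That size did not reach the fold limit, so SGCB was not called.

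SGCA (ENSBTAG00000003956, chr19:36482931-36491920, minus strand) encodes alpha-sarcoglycan, whose expression is largely limited to striated muscle. It measured 12.2, 11.2 and 14.1 FPKM in GM and 13.9, 13.7 and 13.8 FPKM in DM. The third GM library exceeded all DM libraries, so the groups overlapped. Its log2 fold change of 0.14 had a 95% interval from −0.04 to 0.32 (limma adjusted p = 0.20), which leaves out changes as large as the fold limit.

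SGCE, the epsilon subunit found in many tissues, was set beside these 3. It measured 32.6, 32.9 and 28.8 FPKM in GM and 29.1, 28.4 and 29.7 FPKM in DM. Its groups overlapped, and the log2 difference was −0.11 (limma adjusted p = 0.20). Of these 4 subunits 1 rose and 0 fell, with a median log2 fold change of 0.25. SGCZ was not analysed here.

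These unequal differences went with a different make-up of the transcripts of the 4 subunits. Their summed FPKM was 78.2 ± 2.70 in GM and 104.5 ± 3.49 in DM (SD, n = 3 each), a ratio of 1.34. SGCD made up 18.2% ± 0.819 of that sum in GM and 34.2% ± 0.389 in DM (SD, n = 3 each), 16.03 percentage points more. The SGCE share was 40.2% ± 1.59 in GM and 27.8% ± 0.377 in DM, 12.4 points less (difference −12.4), although its own FPKM did not differ past the test. SGCA made up 16.06% ± 2.44 in GM and 13.2% ± 0.386 in DM. SGCB took 25.6% ± 1.63 in GM and 24.7% ± 0.671 in DM, and these groups overlapped. Taken over SGCA, SGCB and SGCD only, the SGCB share differed by −8.52 points and the SGCA share by −8.48 points (exact permutation p = 0.1 for each). For SGCD, SGCE and SGCA the GM and DM shares did not overlap, and the two-sided exact permutation test gave p = 0.1, the smallest that 3 against 3 libraries allow (0.133 after Benjamini-Hochberg adjustment over 4 shares). This design therefore cannot pass 0.05. For SGCB, over the 4 subunits, the exact permutation p was 0.5.

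**Figure D2:**
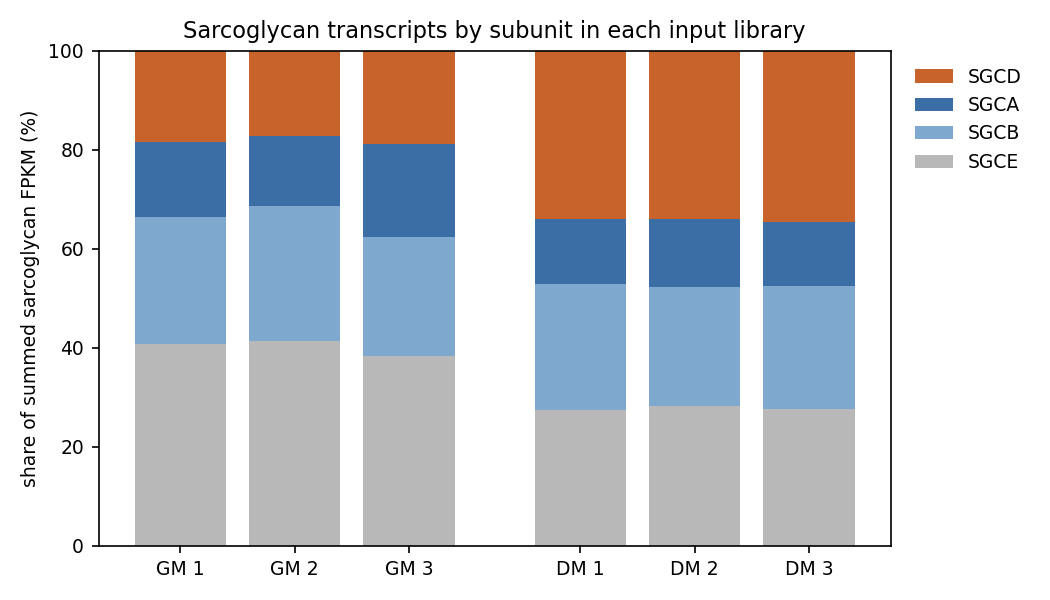
Share of each subunit in the summed FPKM of the 4 sarcoglycans (percent, stacked to 100%) in each input library, with the 3 GM libraries on the left and the 3 DM libraries on the right. SGCD takes 17.3% to 18.9% in GM and 34.0% to 34.7% in DM, while SGCE takes 38.4% to 41.4% in GM and 27.5% to 28.2% in DM.

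DAG1 (ENSBTAG00000011580, chr22:50616593-50663265, minus strand) gave 30.6, 30.1 and 33.6 FPKM in GM and 30.9, 33.9 and 29.6 FPKM in DM. The groups overlapped fully, and the log2 fold change was 0.0014 ± 0.0685 (SE, n = 3 per group). Its 95% interval ran from −0.16 to 0.16 (limma adjusted p = 0.99), so a change of 1.5-fold in either direction lay outside it. SSPN (ENSBTAG00000000393, chr5:83676933-83723213, minus strand) encodes sarcospan, a membrane protein with 4 membrane-spanning segments that binds the sarcoglycans. It gave 5.57, 6.18 and 6.25 FPKM in GM and 7.05, 6.12 and 7.45 FPKM in DM. The second DM library lay among the GM values, and the log2 fold change of 0.17 (95% interval −0.02 to 0.35) had a limma adjusted p of 0.13.

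On the cytoplasmic side, the 3 members differed in direction. DTNA (ENSBTAG00000012307, chr24:22130833-22449938, minus strand, 7 annotated transcripts) encodes alpha-dystrobrevin, which binds dystrophin or utrophin and carries syntrophins. Its level was 1.199, 1.193 and 1.117 FPKM in GM and 4.31, 4.18 and 4.57 FPKM in DM. Each DM library held more than every GM library, and the log2 fold change was 1.30 ± 0.0670 (SE, n = 3 per group; 95% interval 1.15 to 1.46; limma adjusted p = 2.9e-06). DTNB, the beta-dystrobrevin gene, measured 1.52, 1.10 and 1.596 FPKM in GM and 1.06, 1.33 and 1.52 FPKM in DM, and its groups overlapped (log2 difference −0.06, limma adjusted p = 0.70).

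SNTB1 (ENSBTAG00000044126, chr14:81871605-82123649, minus strand) encodes beta-1-syntrophin, an adaptor with a PDZ domain. The GM libraries gave 4.16, 5.10 and 4.12 FPKM and the DM libraries 8.03, 6.82 and 7.86 FPKM. The groups were apart, and the log2 fold change was 0.65 ± 0.0914 (SE, n = 3 per group; 95% interval 0.44 to 0.86; limma adjusted p = 0.00072). Of 4 syntrophin genes considered, 2 passed the filter and SNTB1 was the 1 that was called. SNTB2 had a log2 difference of 0.20 (limma adjusted p = 0.055). SNTG1 was listed at 0 in 4 libraries and SNTG2 in 4, and neither passed 0.07 FPKM in any.

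UTRN (ENSBTAG00000009665, chr9:81658039-82206913, plus strand) was the 1 member with a lower level in DM. It measured 30.9, 34.0 and 30.4 FPKM in GM and 22.4, 21.1 and 24.5 FPKM in DM. All DM libraries lay under all GM libraries, and the log2 difference was −0.47 ± 0.0702 (SE, n = 3 per group; 95% interval −0.63 to −0.31; limma adjusted p = 0.0010). The difference passed the adjusted threshold but not the 1.5-fold limit.

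Since FPKM is scaled by transcript length, levels can also be ordered between genes. In GM the order of mean FPKM was UTRN (31.8), DAG1 (31.4), SGCB (20.0), SGCD (14.2), SGCA (12.5), SSPN (6.002), SNTB1 (4.46) and DTNA (1.17), and the ranges of UTRN and DAG1 overlapped, as did those of SGCD and SGCA. In DM it was SGCD (35.8), DAG1 (31.5), SGCB (25.9), UTRN (22.7), SGCA (13.8), SNTB1 (7.57), SSPN (6.87) and DTNA (4.35), and the ranges of SGCB and UTRN overlapped, as did those of SNTB1 and SSPN. SGCD thus stood below UTRN, DAG1 and SGCB in GM and above all of them in DM, while DTNA was the lowest member in both. Against DAG1 of the same library, as log2 of the ratio of FPKM + 1, DTNA was 1.30 higher in DM, SGCD 1.27 higher, SNTB1 0.65 higher and UTRN 0.47 lower (log2 difference −0.47). For these 4 the groups did not overlap and the two-sided exact permutation p was 0.1, the smallest possible (0.175 after adjustment over 7 ratios). For SGCB and SGCA it was 0.2 and for SSPN 0.4.

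The other partners of the complex, from a list of 10 genes that includes DAG1 and SSPN, gave 0 calls in either direction among 7 tested, with a median log2 fold change of 0.31. CAV3 (caveolin of muscle membrane pits), TRIM72 (a membrane repair protein), ANK3 (an ankyrin) and PLEC (plectin, a linker to intermediate filaments) were higher in DM at log2 differences of 0.51, 0.50, 0.47 and 0.31, each with a limma adjusted p under 0.05 but under the fold limit. CAV3 measured 40.8, 39.4 and 53.4 FPKM in GM and 64.9, 60.1 and 64.4 FPKM in DM, and without the third GM library it was called (log2 fold change 0.64). With TPM in place of FPKM, CAV3, TRIM72 and ANK3 were all called higher, at 0.64, 0.65 and 0.63. TRIM72 gave 7.65 to 8.78 FPKM in GM and 11.4 to 12.3 FPKM in DM. NOS1 (the neuronal nitric oxide synthase that syntrophin anchors) did not pass 0.37 FPKM in any library, nor AQP4 (a water channel bound by syntrophin) 0.23 FPKM.

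Genes that build the laminin-binding sugar chain on alpha-dystroglycan showed no call, with 0 of 14 tested in either direction and a median log2 fold change of −0.02. At an adjusted p under 0.05 (limma), 2 were lower. B4GAT1, which makes a primer of that chain, measured 5.89, 6.60 and 6.20 FPKM in GM and 4.79, 4.04 and 4.73 FPKM in DM (log2 difference −0.39, limma adjusted p = 0.0041). B3GALNT2, another enzyme of the chain, had a log2 difference of −0.20 (limma adjusted p = 0.0088). LARGE2 was listed at 0 in 1 library.

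Of the dystroglycan ligands, 7 of 10 in the table were tested, and 0 were called higher and 1 lower (median log2 fold change 0.29). LAMA5, a laminin alpha chain of mature basement membranes, fell from 6.78, 6.86 and 7.32 FPKM in GM to 3.32, 3.83 and 3.49 FPKM in DM (log2 fold change −0.81, limma adjusted p = 4.0e-05). LAMA2, the alpha chain of the laminin that surrounds muscle fibres, measured 6.37 to 6.91 FPKM in GM and 8.12 to 8.69 FPKM in DM (log2 difference 0.31, limma adjusted p = 0.0038). Its partner chains LAMB1, LAMB2 and LAMC1 had log2 differences of 0.30, 0.29 and 0.34, each past the adjusted threshold and under the fold limit. HSPG2 (perlecan) had one of −0.26. EGFLAM (pikachurin) was listed at 0 in 5 libraries.

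The integrin system is the other laminin receptor of muscle. ITGA7, the alpha chain of that receptor, fell from 21.6, 21.8 and 21.7 FPKM in GM to 5.69, 4.79 and 5.00 FPKM in DM (log2 fold change −1.88, limma adjusted p = 4.5e-07). It was the 1 call among 8 tested genes of integrin attachment and membrane repair, a list with a median log2 fold change of 0.0077. Its partner ITGB1 had a log2 difference of −0.01. DYSF (dysferlin, of membrane repair) had one of 0.23 (limma adjusted p = 0.035). CAPN3, a muscle protease, lay under the filter, at 0.0065 to 0.0388 FPKM in GM and 0.399 to 0.715 FPKM in DM.

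**Figure D3:**
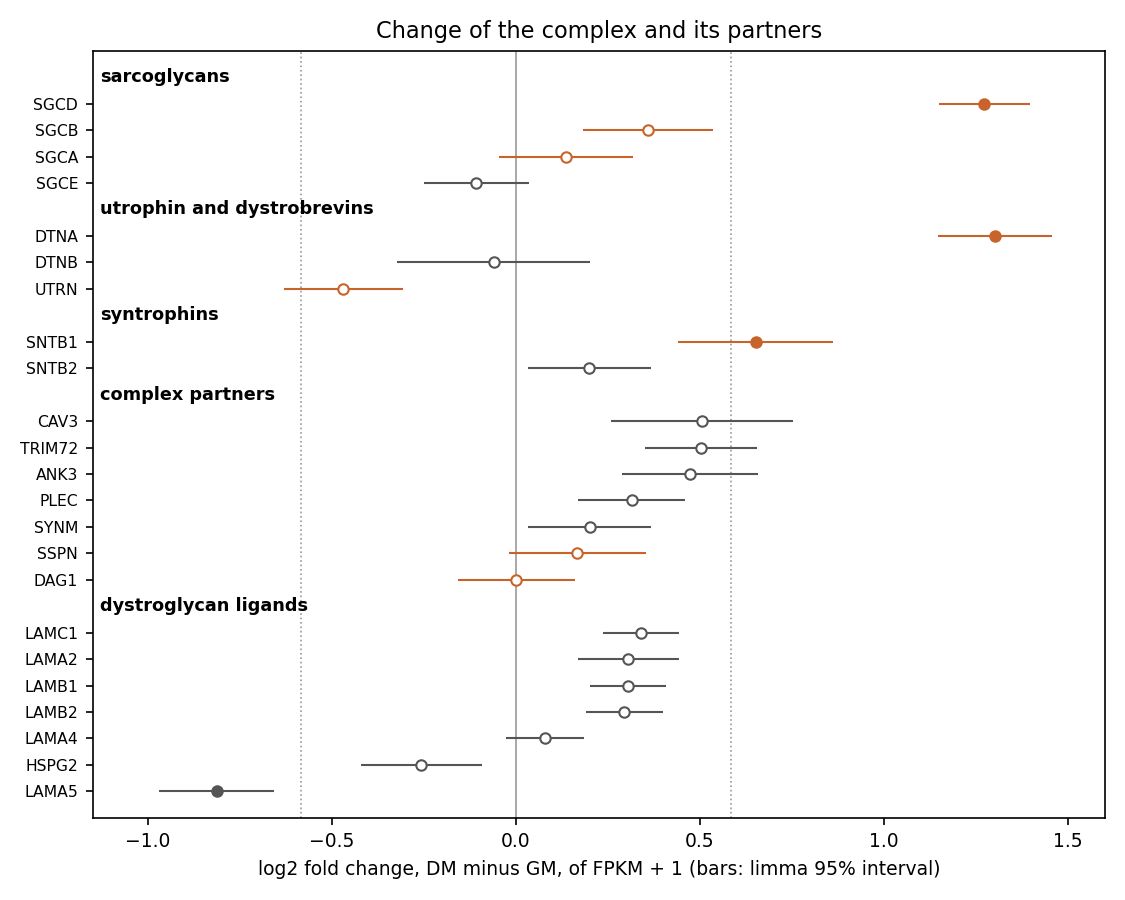
Log2 fold change of FPKM + 1, DM minus GM, for the tested genes of 5 gene lists, with limma 95% intervals (n = 3 input libraries per group). Orange marks the 8 genes described here, filled points were called, and dotted lines mark 1.5-fold in each direction. DTNA and SGCD lie furthest to the right, SNTB1 lies right of the upper dotted line, and LAMA5 lies left of the lower one.

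The genes whose pattern over the 6 input libraries was nearest to each called member were found by Euclidean distance of centred log2(FPKM + 1). Nearest to SGCD were CALHM5 (0.109), RYR1 (0.118) and EMP1 (0.119), of which RYR1 is the calcium release channel of the sarcoplasmic reticulum. For SNTB1 they were MDM2 (0.0765), KIAA0895 (0.108) and RASL11B (0.114), and for DTNA they were SYNJ2 (0.0752), SEMA3C (0.0862) and ABCA6 (0.107). These distances describe likeness over 6 libraries in 2 groups and carry no test.

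The m6A peaks were called by exomePeak on the 3 replicates of a group together, so each group has 1 list with no replicate error, and a difference between lists has no test. The lists give a fold enrichment of immunoprecipitated over input reads per peak. The members had 15 GM peaks and 20 DM peaks. In GM 7 of 8 members had a peak and in DM 8 of 8, against 70.9% and 78.7% of all tested genes. By the names in the lists DTNA was the 1 member with peaks in DM alone, against 10.1% of all tested genes. SGCD joins it, leaving 6 of 8 members with a GM peak, once peaks inside a gene on the opposite strand are set aside, as described for SGCA and SGCD. By region, the GM peaks were annotated as 4 in 5′UTRs, 8 in exons and 3 in 3′UTRs, and the DM peaks as 5, 8 and 7. The GM exon peak listed under SGCD is annotated to an exon of the gene on the opposite strand. The 5′UTR counts of both lists include the SGCA peak inside an opposite gene. That of DM also includes a DAG1 peak that runs through the last exon to the gene's 3′ end. The members' median fold enrichment was 2.98 in GM and 2.31 in DM, where all peaks had medians of 3.27 and 3.38. All 20 DM peaks and 14 of the 15 GM peaks had a false discovery rate under 0.05. The lists hold only called peaks, and the same share over all their peaks was not computed.

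**Figure D4:**
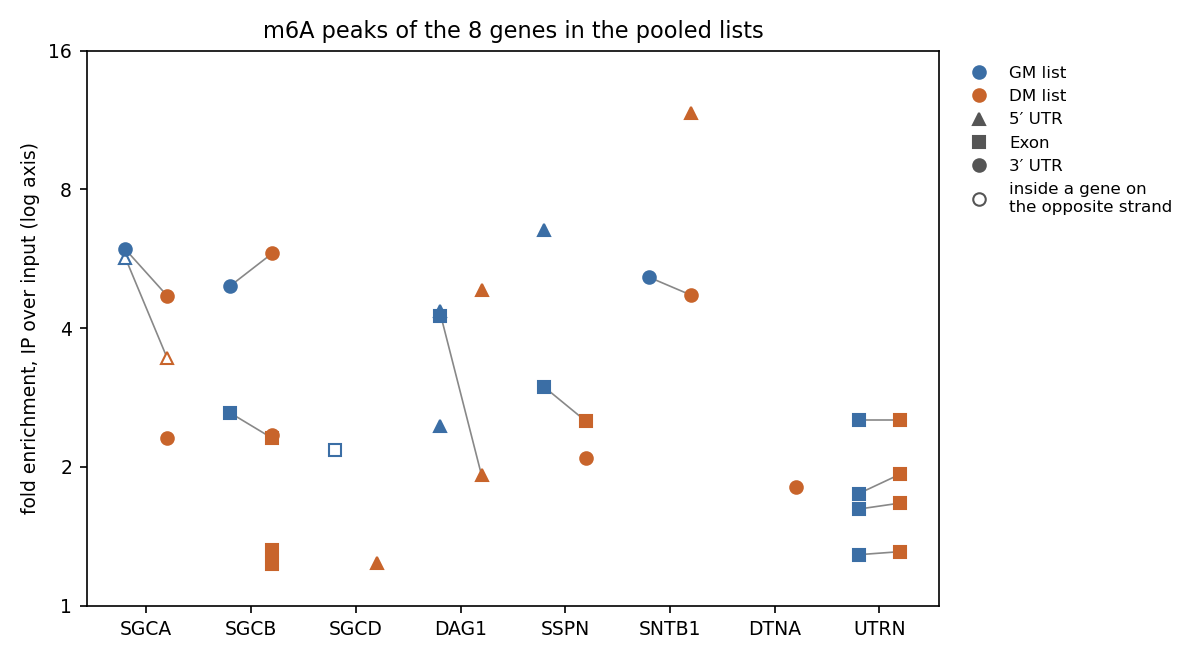
Fold enrichment of immunoprecipitated over input reads (log axis) of every m6A peak of the 8 genes in both lists, with the shape giving the annotated region. Grey lines join a GM and a DM peak that overlap one-to-one, and open symbols lie wholly inside a gene on the opposite strand. The 4 UTRN pairs run nearly level, while 1 DAG1 pair falls from 4.36 to 1.92 and SNTB1 has a DM peak at 11.7 with no partner in GM.

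In 11 cases a GM and a DM peak of a member overlapped one-to-one by at least 1 base. Their fold enrichment was over 1.5-fold lower in DM in 2 and higher in 0, where 10.8% of all 10239 pairs were lower and 14.2% higher (25.0% in all). DAG1 held the larger of these differences. Its peak near the start of the gene (GM chr22:50662414-50663116, DM chr22:50662504-50662772, annotated as 5′UTR) had a fold enrichment of 4.36 in GM and 1.92 in DM, a ratio of 0.44 that lay at percentile 3.39 of all pairs. It covered 509 exonic bases in GM and 269 in DM. The longest DAG1 peaks lay towards the 3′ end. Its last exon, which holds most of the coding sequence, had a GM peak over 2211 bases at chr22:50616593-50618803 with a fold enrichment of 4.25. A second GM peak at chr22:50629612-50635347 covered 419 bases with 2.46. In DM a single peak of 2987 bases spanned both (chr22:50616593-50635377) with a fold enrichment of 4.85. The longest stretch of DAG1 under a peak was thus listed in both groups.

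SGCB went from 2 peaks in GM to 5 in DM. Its 3′UTR peak (GM chr6:67881141-67881681, DM chr6:67880992-67881921) had a fold enrichment of 4.94 in GM and 5.81 in DM, a ratio of 1.18. The peak that begins in its first exon had 2.62 and 2.31. The 3 DM peaks with no GM overlap had 2.35 in the 3′UTR (chr6:67878832-67879342) and 1.32 and 1.23 in inner exons.

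SGCA had a peak in its 3′UTR in both lists, at chr19:36482931-36483139 in GM with 5.93 and at chr19:36482931-36483110 in DM with 4.70. A second 3′UTR peak, at 2.31, was listed in DM alone. The remaining SGCA peak, annotated as 5′UTR, had 5.68 in GM and 3.44 in DM and is the other pair that was over 1.5-fold lower. It lies 4724 bases into SGCA and wholly inside HILS1, a linker histone gene on the plus strand (chr19:36486101-36487196), and in both lists it ends at the last base of HILS1. HILS1 measured 0.800 to 1.33 FPKM in GM and 1.73 to 2.51 FPKM in DM. To which of the genes this peak belongs cannot be told apart from the lists, which name a gene but give no strand of the reads.

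The single GM peak listed under SGCD also lies inside a gene on the opposite strand. It lies at chr7:67757545-67758042 with a fold enrichment of 2.18, inside ENSBTAG00000050594, a gene on the minus strand within SGCD. That gene measured 10.1 to 10.4 FPKM in GM and 8.05 to 8.64 FPKM in DM. The GM list names SGCD for this peak but annotates it to exon 2 of 3 of ENSBTAG00000050594. No strand of the reads is given for it either. In the DM list a peak at that place (chr7:67757515-67758355, fold enrichment 4.26) is named for ENSBTAG00000050594 instead. The 1 DM peak named for SGCD is in its 5′UTR (chr7:67575995-67576083) with 1.24 and a false discovery rate of 0.0479. Without the peaks inside opposite genes, the members had 13 peaks in GM and 19 in DM, and SGCD had 0 in GM.

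SNTB1 had a peak from its last exons into the 3′UTR in both lists (chr14:81872739-81882735 in GM, chr14:81872739-81882854 in DM), with 5.16 in GM and 4.72 in DM. The DM list added a 5′UTR peak at the start of the gene (chr14:82122923-82123649) with a fold enrichment of 11.7 and a false discovery rate of 0.00776. That was the highest fold enrichment of any member peak, at percentile 94.5 of the DM list, though of the members' DM peaks only that of SGCD had a higher false discovery rate. DTNA had 1 peak, in DM at chr24:22206064-22206244, with a fold enrichment of 1.81 and a false discovery rate of 0.00741. It is annotated as 3′UTR and lies 75231 bases before the end of the gene, which has several annotated transcripts. DM peaks without an overlapping GM peak were listed for SGCD, SNTB1 and DTNA, which rose. Such peaks were also listed for SGCA, SGCB and SSPN, which were not called. The share of all tested genes with such a peak was not computed, so this is not read as a trait of the members. The part of expression level in these peaks was not tested.

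UTRN had 4 peaks in each list, all in inner exons and all paired, with fold enrichments in GM of 1.29, 1.75, 2.53 and 1.62 from the 5′ end and in DM of 1.31, 1.93, 2.53 and 1.67. The ratios ran from 1.00 to 1.10. Each fold enrichment is taken over the input reads of its own group, and the input level of UTRN was lower in DM. The pair nearest the 5′ end overlapped by 61 bases only. The strongest pair lay at chr9:81837719-81850994 in GM and chr9:81836672-81850964 in DM. SSPN had an exon peak with 2.98 in GM and 2.51 in DM. Its DM list added a 3′UTR peak with 2.09 (chr5:83676962-83677258), and its GM list held a 5′UTR peak with 6.53 that had a false discovery rate of 0.23, the weakest support of any member peak.

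For comparison, SGCE had a 5′UTR peak with 2.78 in GM and 3.16 in DM.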

How the data were processed

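The members and gene lists were chosen with earlier results of these data known. Per the labels and methods, reads were trimmed (cutadapt and fastp in the labels), aligned to ARS-UCD1.2 with HISAT2, and quantified by StringTie; peaks were called with exomePeak on pooled replicates and annotated with ChIPseeker. The authors deposited FPKM per gene for 6 input libraries. The peak lists deposited by the authors give, per peak, a fold enrichment (a ratio of IP to input) and p-values with false discovery rates on a log10 scale. Read totals were not in the files used here.

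FPKM values were tested as log2(FPKM + 1), pseudocount 1, keeping genes whose mean reached 0.5 FPKM, with limma 3.58.1 (variance trend, R 4.3.3) and Benjamini-Hochberg adjustment over 12302 genes, without a replicate block, since same-numbered libraries did not deviate together (r from −0.21 to −0.08 over genes). Shares and ratios were compared by two-sided exact permutation tests. GM and DM peaks were paired when they overlapped by at least 1 base one-to-one. Named were all members with all their peaks, up to 4 called genes per list by size of change, list genes at 0, and the 3 nearest genes of each called member; other list genes were chosen after their values were seen. Scripts were tested on simulated data. Some list genes are not reported here, and counts, medians and shares over lists leave them out. No sequence is shown, because none of this build was used here.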

Additional observations from a re-analysis of the deposited data

How the results depend on the processing

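The calls of SGCD and DTNA were kept under all 13 alternatives, and that of SNTB1 under all but a limit of 2-fold (its fold change then counted as too small, leaving 2 called members); 103 of 104 member results kept their side. No called member or list gene changed sign. Conversion to TPM moved the median log2 fold change of all tested genes by 0.11, from −0.05 to 0.06. The share of calls that were higher in DM moved from 41.3% to 54.5%, and with size factors it was 48.7%. The summed FPKM was lower in DM. TPM values were also larger against the same pseudocount and filter, so that 13494 genes were tested instead of 12302. The part of each in these shifts was not tested. Relative to the median of all genes the members' FPKM log2 differences were SGCD 1.32, DTNA 1.35, SNTB1 0.70, SGCB 0.41, SSPN 0.22, SGCA 0.19, DAG1 0.05 and UTRN −0.42. With TPM, 7 members instead of 5 passed an adjusted p of 0.05 (limma), SGCA (0.26, adjusted p = 0.024) and SSPN (0.30, adjusted p = 0.032) being added. Size factors gave 6 members, and leaving out 1 library gave 5 to 6. With the replicate block, for which the numbers share no stated origin, 3 members were called and 5 passed the adjusted threshold, as without it.

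Outside the members, the lists other than cell markers had 2 calls, 0 higher and 2 lower. TPM gave 6 calls, 4 of them higher, with CAV3, ANK3 and TRIM72 added and CAPN3 above the filter. No filter gave 1 higher, a limit of 2-fold 1 call in all, which was lower, and leaving out 1 library 0 to 1 higher. With the sarcoglycan shares taken without SGCE, SGCA differed by −8.48 points, SGCB by −8.52 and SGCD by 17 points (exact permutation p = 0.1 for each). With a pseudocount of 0.1 the ratio of DTNA to DAG1 differed by 1.81. Peaks with a fold enrichment of at least 2 left 12 DM peaks and 7 pairs, 1 of them changed, and it was lower. That was the SGCA pair inside HILS1 (5.68 in GM, 3.44 in DM), since the DAG1 peak had 1.92 in DM. A limit of 2-fold left a different pair, that of DAG1 (ratio 0.44), also lower. Neither lower pair was thus kept under both settings. FPKM values were used without read counts, so no counting error is given for low genes such as DTNA.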
